A study of Saccharomyces cerevisiae with 91 samples.

Results

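The promoters of 10 Saccharomyces cerevisiae genes of inositol and phospholipid synthesis were described by the positions of their nucleosomes in vivo: INO2, INO4, OPI1, INO1, ITR1, CHO1, PSD1, CHO2, OPI3 and CKI1. The genes were found by common name in a table of nucleosome dyads, the midpoints of nucleosomes, where they made up 10 of 4536 rows for open reading frames (ORF rows) and of 4963 transcripts in all. For each gene the table gives the transcription start site (TSS), the dyad of the +1 nucleosome downstream of it, the dyad of the -1 nucleosome upstream of it, and the distance between both dyads, here called the length of the nucleosome-depleted region (NDR). The table holds 2 columns of +1 dyads. Values are from the first, which enters the deposited NDR lengths, unless the second is named. NDR lengths with the second column were calculated here from its +1 dyad and the same -1 dyad.

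The study assembled genomic plasmid libraries of budding yeast into chromatin by salt gradient dialysis (SGD), remodeled it with wild-type or mutant INO80 complexes and mapped nucleosomes by micrococcal nuclease digestion and sequencing (MNase-seq). Its 91 libraries fall into 47 groups, of which 1 is native chromatin in vivo and the others are chromatin assembled from embryonic Drosophila, recombinant human or recombinant yeast histones, with or without remodeler, Reb1 or restriction enzyme. By the study's methods the +1 and -1 dyads were called in the in vivo group, a single library of log phase BY4741 cells, a haploid wild-type laboratory strain, grown in the rich medium YPD. This origin was taken to hold for the -1 column and the first +1 column, and that of the second +1 column is not given in the sources used here. The signal of the reconstituted libraries was not analysed here. With 1 library there is no replicate error, and the deposited values are coordinates without depth, so that positions are given as a description with no test.

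Inositol-requiring yeast mutants gave INO80 and the INO genes their names. Ino2 and Ino4 are basic helix-loop-helix proteins that bind as a heterodimer to the inositol-sensitive upstream activating sequence (UAS-INO) and activate phospholipid synthesis genes. When inositol is plentiful, the repressor Opi1 moves from the endoplasmic reticulum to the nucleus and acts on Ino2. INO1 is the classical target of this circuit, and its promoter is a known target of INO80. YPD contains inositol and choline.

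The core of UAS-INO, CATGTGAA on either strand, was present within 500 bp upstream of the TSS at 7 of the 10 genes, against 1.52% of ORF rows (69 of 4536). The genes were chosen for their part in inositol and phospholipid synthesis, which this element serves. This count and that of paired sites below therefore describe the list and test nothing. The 7 genes were INO2, INO4, INO1, ITR1, CHO1, CHO2 and CKI1. They held 10 core sites, 5 on the strand of the gene and 5 on the opposite strand. Because these sites are the sequence feature that the 7 genes share, each is printed with 11 bases on either side. Each is read on the strand that carries CATGTGAA, with the core in capitals. Sequences and coordinates are from R64, the build that SacCer3 denotes.
INO2 site, chrIV:699594-699623, minus strand: agtacaacacaCATGTGAAtttttttcagt
INO4 site, chrXV:111991-112020, plus strand: ggtgagaaaaaCATGTGAAtattttgtttg
INO1 distal site, chrX:136158-136187, minus strand: gctaaatgcggCATGTGAAaagtattgtct
INO1 proximal site, chrX:136095-136124, plus strand: tttctctgctcCATGTGAAttaaataagtt
ITR1 distal site, chrIV:1445733-1445762, plus strand: tatacctaacgCATGTGAAgagaacagaaa
ITR1 proximal site, chrIV:1445670-1445699, minus strand: cttccccaccgCATGTGAAaaaagctcgac
CHO1 site, chrV:208617-208646, plus strand: ttagatgggtcCATGTGAAagctcaaaggc
CHO2 distal site, chrVII:802093-802122, plus strand: gatctccgacaCATGTGAAtttataagtag
CHO2 proximal site, chrVII:802162-802191, plus strand: tattcccttctCATGTGAAgagttcacacc
CKI1 site, chrXII:408239-408268, minus strand: cggtagagcacCATGTGAAtattataccat

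At least 2 cores were present at 3 of the 10 genes, INO1, ITR1 and CHO2, against 0.0882% of ORF rows. That share stands for 4 ORF rows, and the other row was FAS1, which encodes a subunit of fatty acid synthase. The centres of the paired sites lay 63 bp apart at INO1, 63 bp apart at ITR1 and 69 bp apart at CHO2. The pair at INO1 and the pair at ITR1 each had 1 site on either strand, in opposite order, whereas both CHO2 sites read along the gene. Each core is followed in the printed sequences by A at 3, G at 2 and T at 5 of the 10 sites, and by C at none. The longer form CATGTGAAA was therefore present at only 3 genes, INO1, ITR1 and CHO1, against 0.705% of ORF rows.

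The arrangement of the paired sites is shown along the direction of transcription. Capitals mark UAS-INO cores on either strand in all 3 stretches, the URS1 motif (AGCCGCC on either strand, a binding sequence of the repressor Ume6) at INO1, and the TATA motif (TATAAA) at INO1 and ITR1. A TATAAA on the opposite strand follows the distal CHO2 core directly and is left in lower case.
INO1 promoter, chrX:136034-136206, minus strand: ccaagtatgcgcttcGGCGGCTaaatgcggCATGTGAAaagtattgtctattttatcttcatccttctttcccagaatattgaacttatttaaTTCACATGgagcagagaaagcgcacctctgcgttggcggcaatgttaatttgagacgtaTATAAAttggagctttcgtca
ITR1 promoter, chrIV:1445616-1445766, minus strand: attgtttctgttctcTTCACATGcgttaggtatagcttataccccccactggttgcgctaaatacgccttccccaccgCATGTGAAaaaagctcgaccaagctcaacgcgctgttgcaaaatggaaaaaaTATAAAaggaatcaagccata
CHO2 promoter, chrVII:802089-802195, plus strand: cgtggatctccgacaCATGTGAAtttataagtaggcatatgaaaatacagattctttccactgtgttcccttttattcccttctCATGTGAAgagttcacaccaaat

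In the INO1 stretch the URS1 motif began 280 bp upstream of the TSS and ended 8 bp before the distal core. URS1 was present at 1 of the 10 genes, INO1, against 4.17% of ORF rows. TATAAA was present within 500 bp at 6 of the 10 genes (INO4, INO1, ITR1, CHO1, CHO2 and OPI3), against 56.4% of ORF rows. The count for TATAAA was thus close to that of all ORF rows.

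The 3 genes without the core in the 500 bp upstream of the TSS differed in what they held instead. The 6-base E-box CATGTG was present at 9 of the 10 genes, with OPI3 and PSD1 added to the 7, against 14.2% of ORF rows. The sites at OPI3 and PSD1 are printed for comparison with the cores above, with CATGTG in capitals.
OPI3 distal CATGTG, chrX:573130-573159, minus strand: tcaatgagagtgCATGTGgaaagttgcacc
OPI3 proximal CATGTG, chrX:573066-573095, plus strand: aaaccaacgatgCATGTGtgggtttgcata
PSD1 CATGTG, chrXIV:317894-317923, plus strand: ctggttaccctgCATGTGatatgtgattac

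The distal OPI3 site differed from the core at 1 position, A7G, counted from 1 at the 5′ end of CATGTGAA. At PSD1 and OPI1 the closest windows also had 1 mismatch, for example C1A at PSD1 and G4A at OPI1. A window with exactly 1 mismatch was the closest at 33.4% of ORF rows, so that such a match is common. OPI3 was also the 1 gene of the 10 with CACGTG, the E-box bound by Cbf1, against 7.16% of ORF rows. TTACCC, the motif of the general regulatory factor Reb1 used as a remodeling barrier in the study, was present at 2 of the 10 genes, OPI1 and PSD1, against 26.0% of ORF rows.

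**Figure D1:**
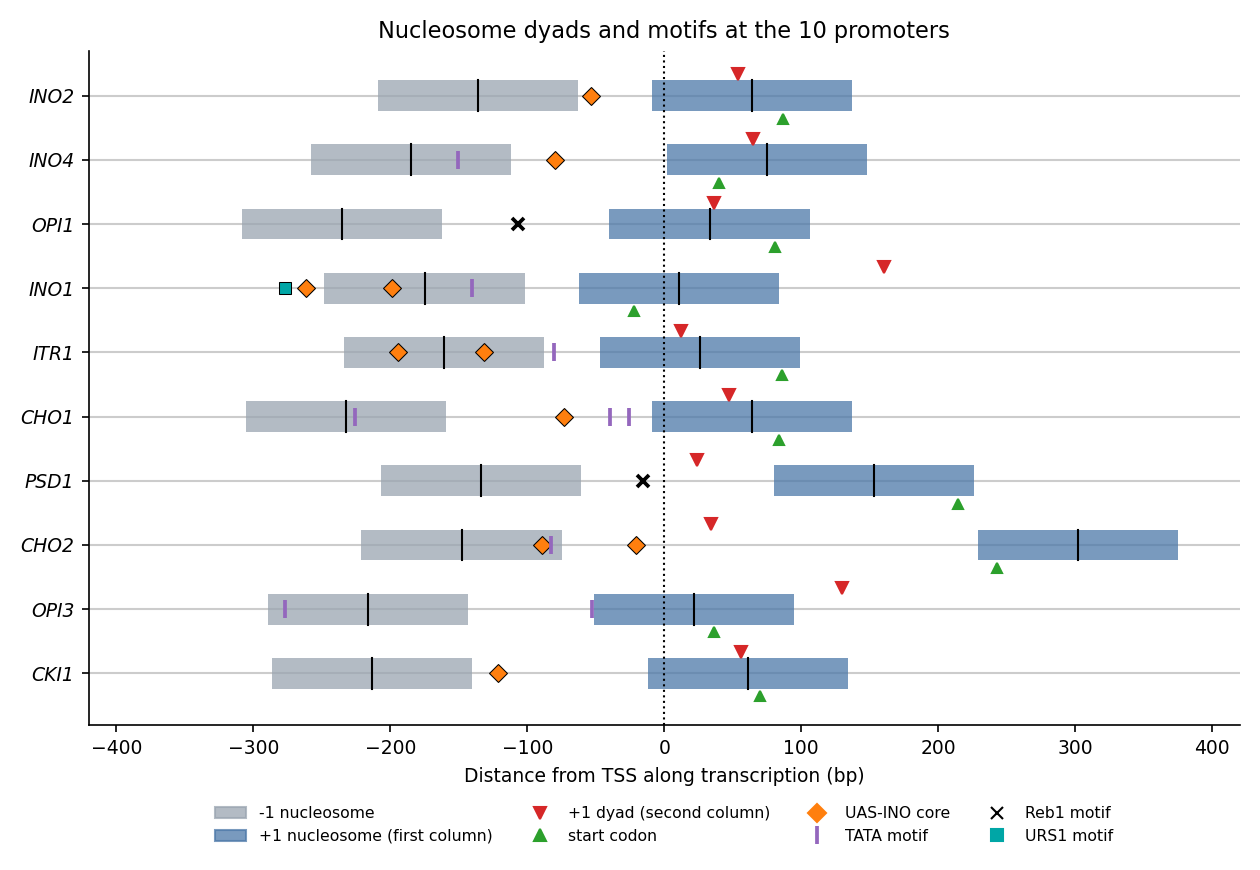
Map of the 10 promoters along the direction of transcription, with the distance from the TSS in bp on the x axis and 1 gene per row. Boxes are the DNA within 73 bp of the -1 dyad (grey) and of the +1 dyad in the first column (blue), red triangles the +1 dyad in the second column, green triangles the start codon, and other symbols the motifs. Both INO1 cores lie on the upstream side of the -1 dyad, and the second column moves the +1 dyad by over 100 bp at INO1, OPI3, PSD1 and CHO2.

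The NDRs of the 10 genes spanned much of the range of all genes. Their length ranged between 186 bp at INO1 and 450 bp at CHO2 with a median of 264 bp, against a median of 265 bp and quartiles of 228 and 298 bp over 4485 ORF rows. An NDR of at most 200 bp was found at 3 of the 10 genes, INO1, ITR1 and INO2, against 17.1% of ORF rows. An NDR over 300 bp was found at 1 of the 10, CHO2, against 24.1% of ORF rows. The limits of 200 and 300 bp were chosen after the values were seen. The median distance between the TSS and the +1 dyad was 62.5 bp over the 10 genes and 54 bp over ORF rows. For this distance the second column gave medians of 50.5 bp over the 10 genes and 50 bp over ORF rows. The median distance between the -1 dyad and the TSS was 180 bp over the 10 genes and 211 bp over ORF rows.

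**Figure D2:**
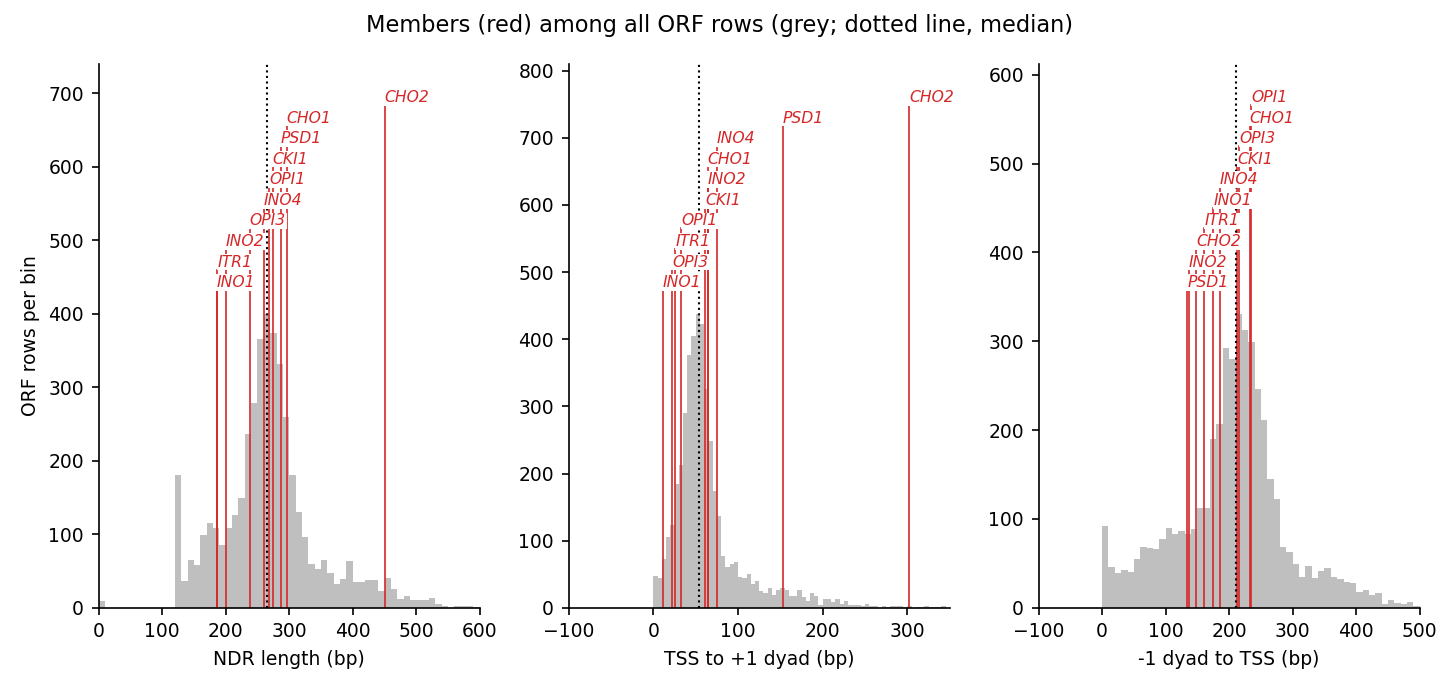
Number of ORF rows (y axis) by NDR length, by distance between the TSS and the +1 dyad and by distance between the -1 dyad and the TSS (x axes, bp), with the 10 genes as red lines at their values. Label heights carry no value. The dotted lines are the ORF medians of 265, 54 and 211 bp, and CHO2 stands at 450 bp in the first panel and 302 bp in the second.

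Among the regulators, INO2 had the shortest NDR and INO4 and OPI1 had NDRs near the middle of all genes. INO2 encodes the subunit of the activator that carries the activation domain. On chromosome IV (minus strand, TSS at 699555), its +1 dyad lay 64 bp downstream and its -1 dyad 136 bp upstream of the TSS, which gave an NDR of 200 bp, the 17.0th percentile of ORF rows. INO4, which encodes the DNA-binding partner of Ino2, had an NDR of 260 bp on chromosome XV (minus strand, TSS at 111926), with the +1 dyad 75 bp downstream and the -1 dyad 185 bp upstream of the TSS. Its NDR stood at the 45.5th percentile.

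OPI1, the repressor gene, had an NDR of 268 bp on chromosome VIII (minus strand, TSS at 67537), at the 52.5th percentile. Its +1 dyad lay 33 bp downstream of the TSS, closer than at INO2 and INO4, and its -1 dyad 235 bp upstream, the farthest of the 10 genes. OPI1 held no CATGTG in its 500 bp. Its Reb1 motif was centred 139.5 bp upstream of the +1 dyad and 128.5 bp downstream of the -1 dyad, close to the middle of the NDR. It also had the longest run of A only or of T only between its dyads among the 10 genes, 12 bp, against a median of 6 bp over ORF rows.

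The genes of inositol supply, INO1 and ITR1, had the shortest NDRs of the 10 in the first column, while in the second the NDR of INO1 was 335 bp and that of ITR1 173 bp. INO1 encodes inositol-3-phosphate synthase, the first enzyme of inositol synthesis, and lies on chromosome X (minus strand, TSS at 135911). Its +1 dyad was listed 11 bp downstream of the TSS, at the 2.63rd percentile, and its -1 dyad 175 bp upstream, which gave an NDR of 186 bp at the 14.0th percentile. ITR1 encodes the major inositol transporter of the plasma membrane. On chromosome IV (minus strand, TSS at 1445553) its dyads lay 26 bp downstream and 161 bp upstream of the TSS, with an NDR of 187 bp at the 14.3rd percentile. The NDRs of INO1 and ITR1 thus differed by 1 bp in the first column, and taking 73 bp on either side of each dyad as the nucleosome core left 39 and 40 bp between the cores.

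The listed TSS of INO1 lay 22 bp inside its coding sequence. This was the case at 1 of the 10 genes, against 2.74% of 4412 ORF rows with a coding start in the annotation. The study defined the +1 dyad by its distance from the TSS, so the choice of the +1 dyad at INO1 rests on this TSS. The +1 dyad at INO1 lay 33 bp inside the coding sequence, counted from the A of the start codon. At 3 of the 10 genes, CHO2, INO4 and INO1, the +1 dyad lay past that A, against 42.7% of ORF rows, by 59, 35 and 33 bp.

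The rows closest to INO1 over both distances from the TSS were YIL046W-A, the joint row of YIL047C-A and SYG1, and NDE1, at 1.41, 2.00 and 3.16 bp. YIL046W-A and the joint row had the same NDR length, 184 bp. Whether they share 1 pair of dyads, and so stand for 1 promoter, was not checked. In all, 5 ORF rows lay within 5 bp of INO1 and 11 within 10 bp. These rows thus had dyad positions relative to the TSS similar to those of INO1 in the first column. How many such rows other genes have was not counted. Both distances are measured from the listed TSS of INO1, which lies inside its coding sequence. In the second column of +1 dyads, the joint row of YIL047C-A and SYG1 moved by 152 bp and INO1 by 149 bp, but YIL046W-A by 14 bp and NDE1 by 29 bp.

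Among the genes that make phosphatidylserine and its products, CHO2, CHO1 and PSD1 had the 3 longest NDRs of the set in the first column, while in the second those of CHO2 and PSD1 were 182 and 158 bp. OPI3, which also belongs to this group, went the other way, with 238 bp in the first column and 346 bp in the second. CHO1 encodes phosphatidylserine synthase. On chromosome V (minus strand, TSS at 208558) its +1 dyad lay 64 bp downstream and its -1 dyad 232 bp upstream of the TSS, with an NDR of 296 bp at the 73.7th percentile. PSD1 encodes the mitochondrial phosphatidylserine decarboxylase, which makes phosphatidylethanolamine. Its NDR of 287 bp, at the 68.3rd percentile, was bounded by a -1 dyad 134 bp upstream and a +1 dyad 153 bp downstream of the TSS on chromosome XIV (minus strand, TSS at 317885). The -1 dyad was the closest and the +1 dyad the farthest but for CHO2 among the 10 genes.

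The TSS of PSD1 carried the end label mapped3, whereas the other 9 genes carried bothEndsMapped. It was listed 1 bp from the listed transcript end of FMP41, the gene upstream in the same orientation, and 214 bp from the start codon. A label of mapped3 or mappedNone was found at 1 of the 10 genes, against 1.59% of ORF rows. The split of the PSD1 NDR into its parts upstream and downstream of the TSS rests on this TSS, while the distance between the dyads does so only through the choice of the +1 dyad. The motif search at PSD1 rests on this TSS too, and the 214 bp between it and the start codon were not searched.

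CHO2 and OPI3 encode the methyltransferases that convert phosphatidylethanolamine to phosphatidylcholine, Cho2 in the first methylation and Opi3 in the later ones. CHO2 on chromosome VII (plus strand, TSS at 802197) had an NDR of 450 bp at the 96.5th percentile, with the -1 dyad 148 bp upstream of the TSS. Its +1 dyad was listed 302 bp downstream, at the 99.6th percentile, and the start codon 243 bp downstream. OPI3 on chromosome X (minus strand, TSS at 572971) had an NDR of 238 bp at the 29.8th percentile, with the +1 dyad 22 bp downstream and the -1 dyad 216 bp upstream. A +1 dyad over 100 bp downstream of the TSS was found at 2 of the 10 genes, CHO2 and PSD1, against 14.0% of ORF rows. Which genes passed this limit depended on the column. In the second column the distance was 34 bp at CHO2 and 24 bp at PSD1, but 160 bp at INO1 and 130 bp at OPI3. The share of ORF rows over the limit was not counted in that column.

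CKI1 encodes choline kinase, the first enzyme of the route from choline to phosphatidylcholine. On chromosome XII (plus strand, TSS at 408375) its dyads lay 61 bp downstream and 213 bp upstream of the TSS, and its NDR of 274 bp stood at the 57.7th percentile.

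The UAS-INO cores lay between the cores of the -1 and +1 nucleosomes at 5 of 10 sites, within 73 bp of the -1 dyad at 4 sites and upstream of the -1 nucleosome core at 1 site. No core lay within 73 bp of a +1 dyad of the first column. Among 63 sites at 62 other ORF rows, 30.2% lay between the cores, 30.2% within 73 bp of the -1 dyad and 39.7% farther upstream. The sites of the 10 genes were centred 20.5 to 261.5 bp before the TSS with a median of 105.5 bp, against 26.5 to 489.5 bp with a median of 218.5 bp at the other ORF rows.

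The sites of INO2, INO4, CHO1 and CKI1 lay between the nucleosomes. The INO2 core was centred 82.5 bp downstream of the -1 dyad and 117.5 bp upstream of the +1 dyad. For INO4 these distances were 105.5 and 154.5 bp, for CHO1 158.5 and 137.5 bp, and for CKI1 91.5 and 182.5 bp. Each of these 4 genes had 1 core site and the centre of each site fell outside 73 bp of either dyad.

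At the genes with paired sites, the -1 nucleosome covered 1 or both. The distal INO1 core was centred 86.5 bp and the proximal one 23.5 bp upstream of the -1 dyad, so that none lay between the -1 and +1 dyads. The INO1 TATA motif was centred 34.5 bp downstream of the -1 dyad, also within 73 bp of it. At ITR1 the distal core lay 33.5 bp upstream and the proximal one 29.5 bp downstream of the -1 dyad, on both sides of it. At CHO2 the distal core lay 58.5 bp downstream of the -1 dyad and the proximal one 127.5 bp downstream, in the NDR. Whether a dyad of this single library reflects the nucleosome in most cells cannot be read from the coordinates.

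The columns of +1 dyads differed at 4 of the 10 genes by over 100 bp, against 5.86% of 4520 ORF rows. The limit of 100 bp was chosen after the values were seen. The second column lies on a grid of 10 bp, with 4947 of 4949 values ending in the digit 1. The columns are not replicates, and the cause of their differences was not tested. At the other 6 genes, INO2, INO4, OPI1, ITR1, CHO1 and CKI1, they lay 3 to 17 bp apart, and over ORF rows the median distance was 11 bp.

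The 4 genes moved in both directions. The second column placed the +1 dyad farther downstream at INO1, 160 bp from the TSS and 149 bp from the first column. At OPI3 it also lay farther downstream, 130 bp from the TSS, a move of 108 bp. It placed the +1 dyad closer to the TSS at CHO2, 34 bp downstream of the TSS and 268 bp upstream of the first column. At PSD1 it also lay closer, 24 bp downstream of the TSS, 129 bp upstream of the first column. The INO1 distance thus stood at the 2.63rd percentile of ORF rows in the first column and at the 96.3rd in the second.

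**Figure D3:**
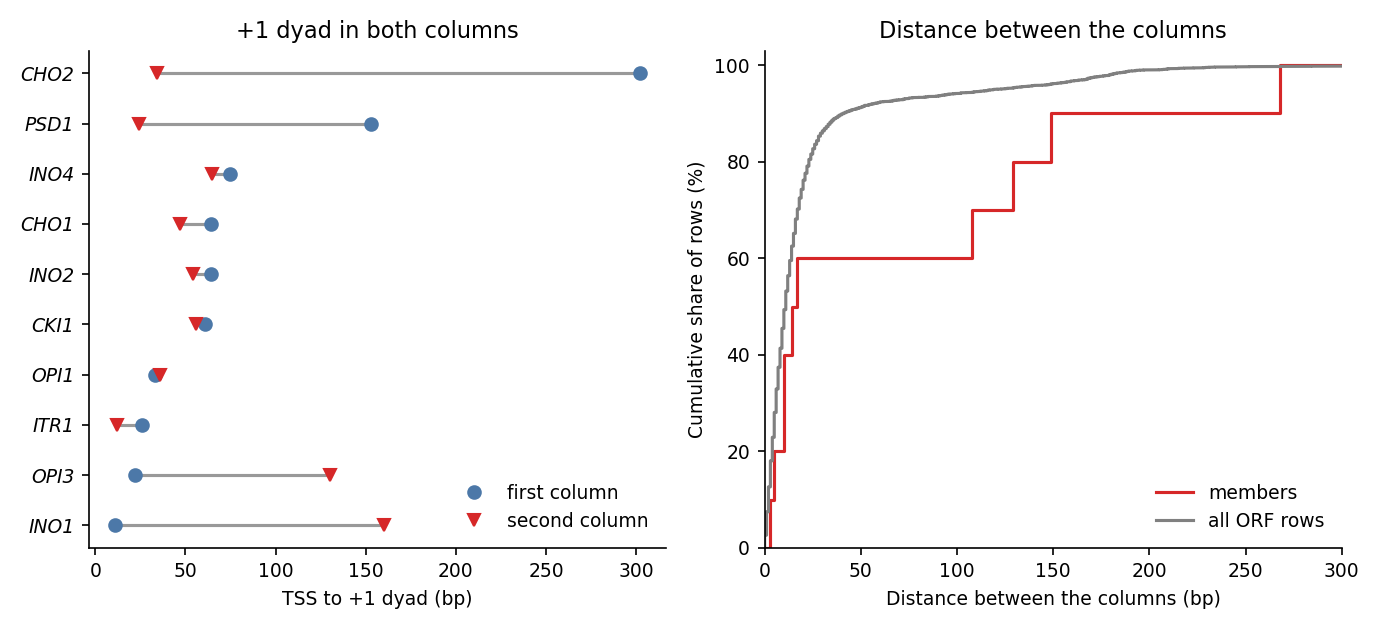
Left, distance between the TSS and the +1 dyad (x axis, bp) for each gene in the first column (blue circles) and the second column (red triangles). Right, cumulative share of rows (y axis, %) by distance between the columns (x axis, bp) for the 10 genes (red) and all ORF rows (grey): 6 genes lie at 17 bp or less and the other 4 between 108 and 268 bp.

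The order of NDR lengths depended on the column at these genes. With the second column the NDR was 335 bp at INO1 (85.7th percentile), 346 bp at OPI3 (87.0th), 182 bp at CHO2 (13.8th) and 158 bp at PSD1 (8.88th). INO1 then had the NDR next to the longest of the 10 instead of the shortest, and CHO2 the third shortest instead of the longest. At INO1 and OPI3 the +1 dyad of the first column lay inside the NDR of the second. At CHO2 and PSD1 the +1 dyad of the second column lay inside the NDR of the first. The longer NDR of each of these genes thus held a dyad listed in the other column. The median over the 10 genes was 259.5 bp with the second column and 264 bp with the first. With the second column the proximal CHO2 core was centred 54.5 bp upstream of the +1 dyad, within its 73 bp, and the PSD1 Reb1 motif 39.5 bp upstream of it. The places of the other 9 cores, relative to the nucleosomes, did not depend on the column.

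Several -1 dyads belonged to neighbouring genes as well. At 3 of the 10 genes, INO4, OPI3 and CKI1, the -1 dyad was the +1 dyad of another transcript, against 25.9% of ORF rows. At these 3 genes the other transcript was a divergent neighbour, which the share over ORF rows did not require. INO4 shared both dyads with YOL107W, whose TSS lay 115 bp upstream of that of INO4, and their single UAS-INO core was counted for both rows. OPI3 shared both dyads with MOG1, a gene of nuclear transport, whose TSS lay 203 bp upstream.

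At another 3 of the 10 genes, OPI1, CHO1 and PSD1, the -1 dyad was the last dyad of another transcript, against 24.2% of ORF rows. These transcripts were APM2, GAL83 and FMP41, each upstream in the same orientation, which the share over ORF rows did not require. GAL83 encodes a beta subunit of the Snf1 kinase, and APM2 a subunit of a clathrin adaptor. The remaining genes INO2, INO1, ITR1 and CHO2 had a -1 dyad that was not listed as the +1 or last dyad of another row. The upstream intergenic regions, measured between coding sequences, ranged between 159 bp at OPI3 (2.38th percentile) and 846 bp at INO2 (82.8th percentile). Their median was 366.5 bp over the 10 genes and 441 bp over ORF rows.

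The DNA between the dyads was less rich in A and T at 7 of the 10 genes than the ORF median. The share of A and T ranged between 56.9% at OPI3 and 66.0% at CHO1, with a median of 61.0% over the 10 genes and 64.5% over ORF rows. INO4, CHO1 and CHO2 were above the ORF median. At OPI3 the longest run of A only or of T only was 4 bp, the lowest of the 10 genes.

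The rigidity score of the study gives each base the size in bp of the longest A-then-T tract (any number of A, then any number of T, at least 2 bp in all) that contains it, and was averaged over 21 bp centred 100 and 55 bp upstream of the +1 dyad. At 100 bp it ranged between 0.43 bp at OPI3 and 2.71 bp at PSD1, with a median of 2.29 bp over the 10 genes and 1.90 bp over ORF rows. With the second column the order of the medians turned round, with 1.43 bp over the 10 genes and 1.86 bp over ORF rows. At 55 bp it was over 3 bp at 3 of the 10 genes, CKI1 (4.67 bp), CHO1 (4.24 bp) and INO1 (3.90 bp), against 5.17% of ORF rows. This limit too was chosen after the values were seen. With the second column none of the 10 genes exceeded it, and the highest value was 2.52 bp at CKI1. INO1 had 0.38 bp with the second column.

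A BamHI, EcoRV or KpnI site of the study's lists, used there to place DNA ends in chromatin, lay within 500 bp of the +1 dyad at 4 of the 10 genes, against 44.1% of ORF rows. These were EcoRV sites 208 bp downstream of the +1 dyad at CHO1 and 404 bp downstream at CKI1, an EcoRV site 448 bp upstream at PSD1 and a KpnI site 465 bp upstream at INO4. The nearest site at INO1 was an EcoRV site 644 bp downstream. The 10 genes were thus about as close to cut sites as ORF rows in general, with median distances of 587 and 579.5 bp.

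Other genes of the pathway were taken from a list of 20, of which 18 had a row, 2 of them, INM2 and DGK1, by systematic name. HNM1 and ECT1 were not analysed here. The UAS-INO core was present at 4 of the 18, CDS1, CPT1, FAS1 and FAS2, against 1.52% of ORF rows. CDS1 encodes CDP-diacylglycerol synthase, CPT1 cholinephosphotransferase, and FAS1 and FAS2 the subunits of fatty acid synthase. The CDS1 core lay 153.5 bp downstream of the -1 dyad and 122.5 bp upstream of the +1 dyad, and the CPT1 core 117.5 and 154.5 bp, both between the nucleosome cores as at INO4 and CKI1. The FAS2 core lay 70.5 bp upstream of the -1 dyad and the FAS1 cores 31.5 and 193.5 bp upstream of it, on the same side of the -1 dyad as both INO1 sites.

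NDR lengths in the list of 18 ranged between 120 bp at FAS2 and 451 bp at PSD2, the gene of the other phosphatidylserine decarboxylase, with a median of 273 bp. The NDR of FAS2 stood at the 1.54th percentile of ORF rows and that of PSD2 at the 96.6th. The 120 bp at FAS2 equals the distance around a called dyad within which the study's calling removed other positions. Its length may therefore be set by the calling, and its percentile is the middle of a tie with other ORF rows.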

How the data were processed

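The authors sequenced mononucleosomal fragments of 1 in vivo library of BY4741, mapped them to SacCer3 with Bowtie, shifted read ends to the dyad, smoothed the density, called dyads with an exclusion distance, and took the dyad nearest to each TSS on its downstream side as the +1 and the next one upstream as the -1. The deposited values are coordinates in bp, without counts or depth, and 8 other numeric columns were not used. All listed BamHI (1662), EcoRV (4221) and KpnI (1904) sites lay on their recognition sequences in R64.

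Distances were taken along transcription, and percentiles are mid-rank percentiles among ORF rows. Motifs were searched as exact letters on both strands within 500 bp upstream of the TSS, so CATGTG includes the core. Python 3.11.15, pandas 2.3.3 and NumPy 2.4.6 were used, and the motif, percentile and rigidity functions were tested on simulated data. Genes named in the text were all 10 members, neighbours sharing a dyad or promoter, genes of the wider list with the core or with the shortest or longest NDR, and the 3 rows closest to INO1. The members and lists were chosen with earlier results of these data known. Alternatives changed the +1 column, the rows behind percentiles, the motif, the window and the cut distance. The neighbour of 1 member is not reported here.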

Additional observations from a re-analysis of the deposited data

How the results depend on the processing

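No paired analysis was possible because no column holds values of separate samples. Of 20 alternatives over 10 results, 17 stayed within the 95% order-statistic interval of the members' median, or within 1.5 times the count. This interval reflects the spread of 10 chosen genes, which are not replicates, so that staying within it is a weak check. The rigidity at 100 bp counted as within it, although its order against ORF rows turned round with the second column. CATGTG and the 800 bp window include the original search and could not lower the count of genes. Leaving out NDRs over 500 bp could not change the median NDR of 264 bp, because the longest was 450 bp. Taking distinct dyad pairs could not change it either, because no pair was shared among the 10 genes. The exceptions were the longer motif and the other cut distances. CATGTGAAA was present at 3 genes, so that the count depended on the motif chosen. A cut site lay near the +1 dyad of 1 gene within 250 bp and of 9 genes within 1000 bp, against 23.6% and 72.0% of ORF rows. The count of UAS-INO cores between the nucleosome cores was 4 with the second +1 column and 5 with the first, an alternative chosen after seeing the data. Medians hide single genes: with the second +1 column the NDRs of INO1, OPI3, CHO2 and PSD1 changed by 108 to 268 bp, as given above. No depth or peak height stands behind a dyad, so its precision is unknown.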

Other observations

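At the other end of the genes, the last dyad lay 18 bp upstream of the transcript end at CHO1 (7.30th percentile of ORF rows) and 191 bp upstream at CHO2 (85.9th percentile), with a median of 93 bp over the 10 genes and 108 bp over ORF rows. Transcripts ranged between 737 bp at INO4 and 2953 bp at CHO2, with a median of 1649 bp over the 10 genes and 1589 bp over ORF rows.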
